A study of Drosophila melanogaster with 64 samples.

Results

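Of the 17481 genes counted in heads of male Drosophila melanogaster, 2382 carry a symbol that marks them as a long noncoding RNA (lncRNA, 1892 genes) or an antisense RNA (asRNA, 490 genes), and 130 of these were expressed well enough to be described here. They were chosen by a mean level of at least 3 CPM (counts scaled to the summed counts of all genes in the library) over the 33 libraries prepared on the second library day. They comprised 81 lncRNA and 49 asRNA genes. Of all 2382, 224 had no count in any library.

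The flies carried the white mutation w[1118] (Bloomington stock 5905), which all groups share, and were 3 d old when traumatic brain injury (TBI, labelled severe) or a sham procedure was applied. Heads, 20 per sample, were collected from TBI and from sham flies at 1, 3, 6, 12 and 24 h and at 3, 7, 10 and 15 d, and from uninjured 3 d old control flies. The later groups are therefore also older flies. RNA with a polyA tail was sequenced with a stranded kit, in 64 libraries prepared on 2 days, so that noncoding RNAs without a tail are poorly sampled. Library day 2 held the control, 1, 3, 6, 12 and 24 h groups (33 libraries, 3 per group), and library day 1 the control, 24 h, 3, 7, 10 and 15 d groups (31 libraries, 3 per group but 2 per group at 15 d). The labels call the replicates biological, and whole heads pool neurons, glia, photoreceptors, fat body and muscle. In such bulk samples fewer cells of a type and less RNA per cell cannot be told apart.

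Long noncoding RNAs are transcripts with no long reading frame, which can act as RNA by binding proteins or chromatin, or whose transcription itself can affect a neighbouring gene. Antisense RNAs are those transcribed from the strand opposite a protein-coding gene and overlapping it. In flies the best known are roX1 and roX2, which assemble with the MSL proteins on the male X chromosome for dosage compensation, and Hsromega (hsrω), a heat shock RNA that organises nuclear omega speckles of RNA-binding proteins. For most of the genes with a CR number no function is known.

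Libraries of day 2 held 18.6 to 44.9 M gene counts and those of day 1 9.16 to 26.4 M. The 130 RNAs together took 1.09% to 1.77% of the gene counts on day 2 (median 1.34%) and 0.978% to 1.48% on day 1 (median 1.12%). Markers of neurons, glia, photoreceptors, fat body and muscle were present in the libraries of both days, while the 8 testis and accessory gland markers summed to at most 1.76 CPM in a library and the 4 gut markers to at most 12.7 CPM. The summed fat body markers moved with injury: at 3 h they reached 2270 to 3480 CPM after TBI, against 5910 to 7770 CPM after sham, and at 1, 6 and 12 h they were lower after TBI without overlap as well (at 6 h 3740 to 6080 CPM against 6720 to 10800 CPM). Other marker sets moved at some times too. Hemocyte (blood cell) markers at 1 h summed to 35.7 to 59.5 CPM after TBI, against 87.0 to 154 CPM after sham. Photoreceptor markers were higher after TBI at 1 h (38900 to 40900 CPM against 34600 to 37500 CPM) and lower at 12 h (30000 to 32500 CPM against 34300 to 51900 CPM). The part of these marker sets in the results on injury was not tested.

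The library labelled sham 12h replicate 3 went against its label. The clock gene tim (timeless) had 1750, 1580 and 1490 CPM in the TBI libraries of 12 h, against 1790, 2140 and 130 CPM in the sham libraries of 12 h, and controls had 130, 97.9 and 129 CPM. Clk, a clock gene with the opposite phase, had 17.2, 13.5 and 10.6 CPM in the TBI libraries and 15.1, 14.5 and 94.4 CPM in the sham libraries. In that library 32 of the 130 RNAs (24.6%) differed by at least 1.5-fold from both other sham 12h libraries, against 9.8% of all genes at 3 CPM or more. Counts of the RNAs that passed at 12 h, and most 12 h fold changes of single RNAs, are therefore given with and without it. Other 12 h values, among them marker sums, coding genes and medians, are given with all libraries only. Among other libraries, day 1 control replicate 2 had 32 such RNAs (10.4% of genes), TBI 10d replicate 3 had 25 (7.3% of genes) and day 2 control replicate 1 had 21 (13.2% of genes).

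The 130 RNAs lay on all chromosome arms, with 27 of them (20.8%) on the X, against 16.4% of all genes at 3 CPM. All 49 asRNA genes and 8 lncRNA genes overlapped exons of a protein-coding gene on the opposite strand, and 35 lay within 1 kb of a coding gene on their own strand, 23 downstream and 12 upstream of it. In all, 13 shared exon bases with a coding gene on the same strand, so that their counts are uncertain. Among these are lncRNA:CR42862 (246 bp shared with CG33229), asRNA:CR46194 (362 bp with Oda) and lncRNA:CR45018 (1433 bp with IP3K2). Exons summed to a median of 1505 bp (299 to 21710 bp), and 73 RNAs had a single exon. Counts appear to have been assigned by strand: of 36 noncoding genes that lie wholly inside exons of a coding gene on the opposite strand, 35 had counts, 41977 in all. Positions here and below are those of the BDGP6.54 annotation, while no source used here names the build on which reads were counted.

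Levels spanned a wide range. lncRNA:CR42862 (3L, 224106 to 230964) averaged 7826 CPM on day 2 and alone held 47.8% to 63.6% of the counts of the 130 RNAs in a day 2 library. lncRNA:roX1 followed with 2450 CPM, then lncRNA:Hsromega with 422.5 CPM. Per kb of exon, lncRNA:CR42862 had 1427 CPM, lncRNA:roX1 448.1 CPM, lncRNA:CR34335 237.7 CPM, lncRNA:CR44832 178.2 CPM, lncRNA:noe 151.1 CPM, lncRNA:mimi 141.0 CPM, lncRNA:roX2 124.4 CPM and asRNA:CR45600 74.61 CPM. Median levels of the lncRNA (10.66 CPM) and asRNA (8.96 CPM) genes were close. Just inside the threshold were asRNA:CR17025 (3.088 CPM), asRNA:CR43629 (3.053 CPM) and asRNA:CR44179 (3.031 CPM), and just outside it lncRNA:CR44320 (2.985 CPM), lncRNA:CR44997 (2.921 CPM) and lncRNA:CR45597 (2.859 CPM). Several described RNAs fell far below it on both days, among them lncRNA:yar, lncRNA:CRG, lncRNA:iab8, lncRNA:bxd, lncRNA:flam, lncRNA:cherub and lncRNA:sphinx. Because TBI libraries entered the mean, 7 RNAs reached 3 CPM only through them: asRNA:CR44205, asRNA:CR44207, asRNA:CR46074, asRNA:CR44179, lncRNA:CR32368, lncRNA:CR44298 and lncRNA:CR43461. A higher level after TBI in these 7 is partly fixed by that choice. The choice also worked the other way. By control and sham libraries of day 2 alone 129 lncRNA and asRNA genes reached 3 CPM, and 123 of them are among the 130. The rest fell below 3 CPM once TBI libraries entered the mean.

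Levels from here on, like the marker sums and the values on sham 12h replicate 3 above, are CPM after TMM scaling. A gene passed when its adjusted p was under 0.05 (edgeR's quasi-likelihood test, Benjamini-Hochberg over all genes of the library day), and all 130 RNAs were tested on both days. The question of the first comparison is which of them differed after TBI from sham at the same time. On day 2, 40 of the 130 (30.8%) passed at 1 or more of the 5 times, against 26.2% of all tested genes, a share near the background. Of the 40, 15 were higher, 25 were lower, and 0 changed direction between times. Among the lower, asRNA:CR43464, lncRNA:CR45997 and lncRNA:CR44832 passed at 12 h only, and did not pass without sham 12h replicate 3. At a single time 22 of the 40 passed. The remainder recurred: asRNA:CR42860, asRNA:CR44205, asRNA:CR44179 and asRNA:CR45350 were higher at 4 or 5 times (3.18% of genes were), and asRNA:CR44181, asRNA:CR45161, asRNA:CR45131 and lncRNA:CR43417 were lower at 4 or 5 times (0.875% of genes were). Of the higher ones, asRNA:CR44205 and asRNA:CR44179 reached 3 CPM only through TBI libraries, so their higher level is partly fixed by the choice of RNAs. The same holds for asRNA:CR44207, lncRNA:CR32368, lncRNA:CR44298 and lncRNA:CR43461, also among the 15 higher. Without sham 12h replicate 3, asRNA:CR42860, asRNA:CR44181, asRNA:CR45161 and asRNA:CR45131 still passed at 12 h. Their log2 fold changes were then 1.32, -1.06, -1.22 and -0.92. The 12 h call of asRNA:CR44179 (log2 fold change 0.60) was lost in all 6 fits without 1 library, among them that without sham 12h replicate 3 (0.65, adjusted p = 0.0714), and its 24 h call in 3 of 6.

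At 1 h 8 RNAs passed, 3 higher and 5 lower (7.39% of genes, 4.98% higher and 2.41% lower). At 3 h 30 passed, 11 higher and 19 lower (16.5% of genes, 10.5% higher and 6.00% lower). At 6 h 15 passed, 8 higher and 7 lower (12.1% of genes, 7.88% higher and 4.26% lower). These are 6.15%, 23.1% and 11.5% of the 130 RNAs, so the 3 h count alone of these times stood above its background, and did so on the lower side. The lower share of the 130 was 3.85%, 14.6% and 5.38% at these times, above that of genes at each, and the higher share was below that of genes at each. At 12 h 16 passed, 6 higher and 10 lower (8.62% of genes, 4.99% higher and 3.63% lower). Without sham 12h replicate 3 this was 12, 5 higher and 7 lower (7.42% of genes), of which 10 were among the 16. At 24 h 12 passed, 5 higher and 7 lower (8.40% of genes, 6.2% higher and 2.20% lower). In the day 1 libraries of 24 h 19 passed, 3 higher and 16 lower (15.0% of genes, 7.61% higher and 7.41% lower). Of the 130, 12.3% passed at 12 h (9.23% without sham 12h replicate 3), 9.23% at 24 h on day 2 and 14.6% at 24 h on day 1. With all libraries 7.69%, 5.38% and 12.3% were lower, again above the share of genes, and the higher shares were again below it. The median log2 fold change of the 130 at 1, 3, 6, 12 and 24 h of day 2 was 0.12, -0.04, 0.05, -0.06 and -0.12, and the 24 h libraries of day 1 gave -0.18. Over all genes these medians lay between -0.01 and 0.02.

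Single libraries moved these counts. The share of all genes in the fits below is not given, so the moves are not read as particular to these RNAs. Dropping TBI replicate 1 left 4 RNAs at 1 h, and dropping sham replicate 1 or 3 left 5. At 3 h 17 RNAs were left when TBI replicate 1 or sham replicate 1 was dropped, and 19 when TBI replicate 3 was. That of 12 h was 10, 9 and 9 without TBI replicate 1, 2 and 3. For 24 h on day 1 it was 10 and 7 without TBI replicate 1 and 3, while 8 and 12 were left when sham replicate 1 and 2 were dropped. After 24 h little passed: 1 RNA at 3 d, which was lower (1.35% of genes, 0.0946% lower), and 0 at 7 d (0.227%), 10 d (0.473%) and 15 d (0.0379%), where 8, 11 and 8 RNAs had an unadjusted p under 0.05 by edgeR, and DESeq2 called 1, 1 and 0.

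**Figure D1:**
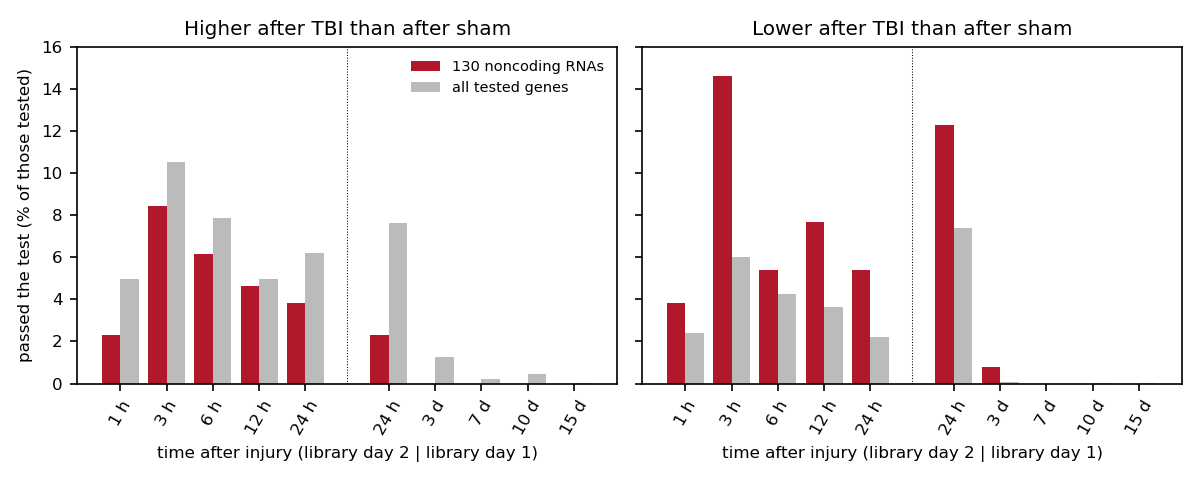
Share of the 130 noncoding RNAs (red) and of all tested genes (grey) that passed the test after TBI against sham, higher in the left panel and lower in the right, by time, with library day 2 left and library day 1 right of the dotted line. The largest red bars are on the lower side, 14.6% at 3 h and 12.3% at 24 h on day 1, against 6.00% and 7.41% of genes.

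**Figure D2:**
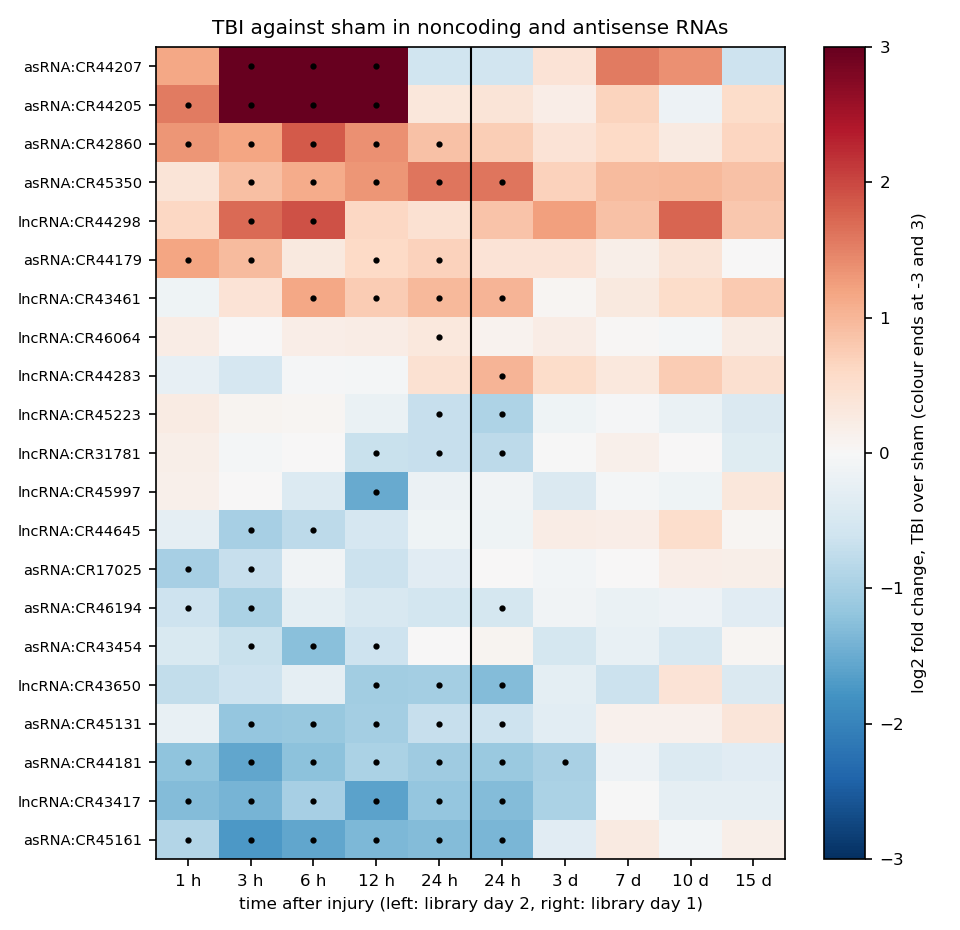
Log2 fold change of TBI over sham (colour, ending at -3 and 3) for the noncoding RNAs with the largest changes, by time, with library day 2 left of the line and library day 1 right of it. Dots mark changes that passed the test, and past 24 h the only dot is that of asRNA:CR44181 at 3 d.

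The largest changes were those of asRNA:CR44205 and asRNA:CR44207, both on the plus strand of chromosome arm 2R (9766348 to 9767514 and 9775110 to 9776370) and both antisense to exons of CG1688. The first starts 829 bp downstream of trpl, a photoreceptor ion channel gene. Both RNAs reached 3 CPM only through TBI libraries, so a higher level after TBI is partly fixed by the choice of RNAs. At 6 h asRNA:CR44205 had 21.8, 15.6 and 16.1 CPM after TBI, against 1.11, 0.936 and 0.688 CPM after sham. asRNA:CR44207 had 18.2, 15.8 and 13.7 CPM after TBI, against 1.25, 0.421 and 0.367 CPM after sham. In both, every TBI library of 3, 6 and 12 h lay above every sham library of the same time. The log2 fold changes of asRNA:CR44205 at 3, 6 and 12 h were 4.45 (SE 0.49, adjusted p = 2.5e-07), 4.31 (SE 0.44, adjusted p = 1.4e-07) and 3.74 (SE 0.48, adjusted p = 5.41e-06) by edgeR's quasi-likelihood test. Those of asRNA:CR44207 were 4.12 (SE 0.72, adjusted p = 0.000145), 4.56 (SE 0.64, adjusted p = 1.44e-05) and 5.44 (SE 0.83, adjusted p = 6.41e-05). Both remained past the threshold in each of the 6 fits per time that left out 1 library.

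The sham levels behind these ratios are small: at 12 h asRNA:CR44207 had 105, 113 and 235 raw counts after TBI, against 2, 1 and 7 after sham. Without the library labelled sham 12h replicate 3 the 12 h values were 5.59 for asRNA:CR44205 and 6.50 for asRNA:CR44207. At 1 h asRNA:CR44205 had 7.98, 4.76 and 3.61 CPM after TBI, against 3.15, 1.63 and 0.864 CPM after sham (log2 1.55, SE 0.42, edgeR adjusted p = 0.0208), a call that was lost in 3 of 6 fits without 1 library. asRNA:CR44207 did not pass at 1 h (adjusted p = 0.292), where the groups overlapped. By 24 h neither passed. asRNA:CR44205 then had 4.13, 3.39 and 2.04 CPM after TBI, against 2.48, 2.64 and 2.49 CPM after sham, and asRNA:CR44207 1.76, 4.71 and 0.408 CPM against 3.92, 3.45 and 3.09 CPM. CG1688 itself passed at 3 h only, with 27.0, 21.1 and 27.9 CPM after TBI, against 19.4, 20.6 and 21.4 CPM after sham (log2 0.31, SE 0.10, edgeR adjusted p = 0.0244). trpl did not pass at any time after TBI.

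**Figure D3:**
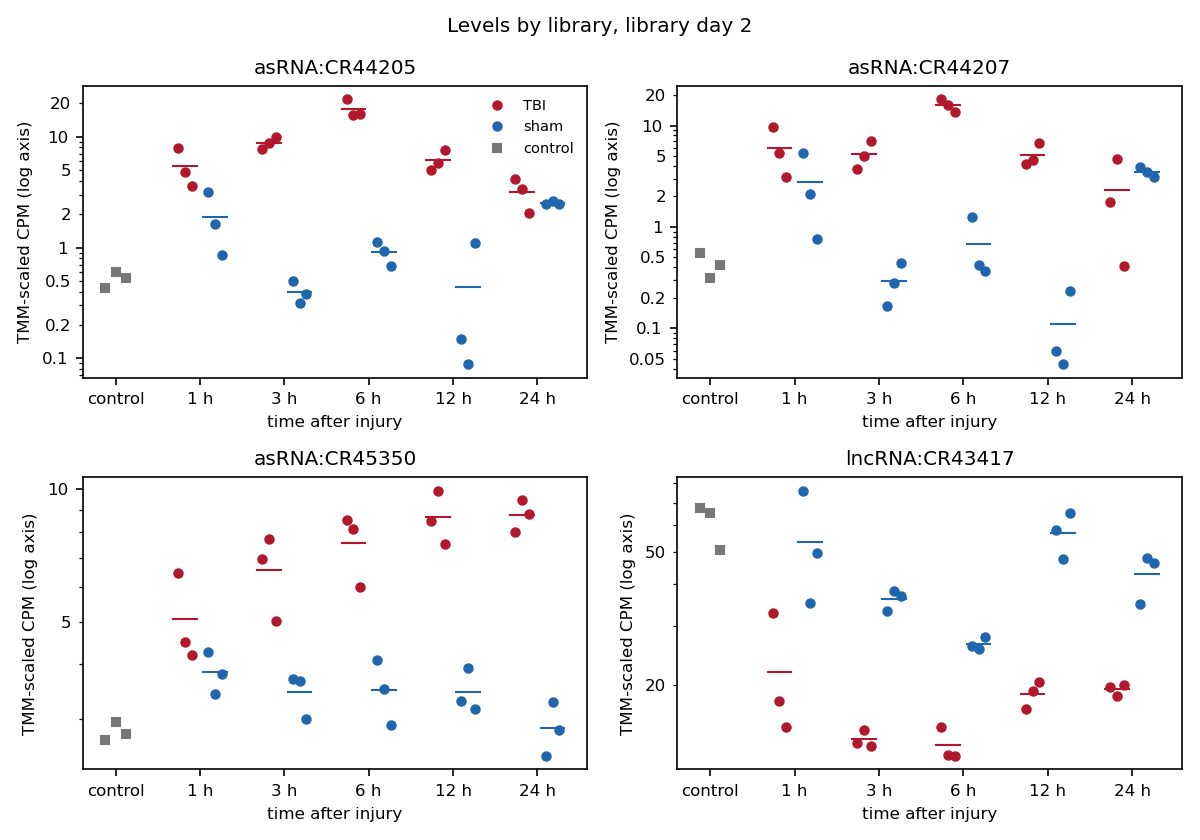
Levels by library on day 2 (TMM-scaled CPM, log axis) of 4 noncoding RNAs in control, TBI and sham flies over the time after injury, with points for libraries and short lines for group means. asRNA:CR44205 and asRNA:CR44207 stand apart at 3, 6 and 12 h, asRNA:CR45350 is higher after TBI from 3 to 24 h, and lncRNA:CR43417 is lower after TBI at all 5 times.

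asRNA:CR42860 (3L, 2088166 to 2089626) is antisense to sls, which encodes a giant titin-like muscle protein. It was higher after TBI at all 5 times of day 2. At 1 h it had 39.2, 43.8 and 41.4 CPM after TBI, against 15.0, 19.7 and 15.4 CPM after sham, and at 6 h 26.6, 29.1 and 32.5 CPM against 6.31, 9.36 and 9.15 CPM. The groups did not overlap at any of the 5 times. The log2 fold change of asRNA:CR42860 lay between 0.87 (SE 0.17, edgeR adjusted p = 0.0011) at 24 h and 1.83 (SE 0.17, edgeR adjusted p = 1.97e-08) at 6 h. sls did not pass at these times. Summed muscle markers overlapped between the groups, with 1130 to 1550 CPM after TBI and 1040 to 1500 CPM after sham at 6 h.

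asRNA:CR45350 passed from 3 to 24 h. It had 6.94, 7.73 and 5.02 CPM after TBI, against 3.71, 3.66 and 3.0 CPM after sham at 3 h, and 8.02, 9.46 and 8.77 CPM against 2.48, 3.28 and 2.84 CPM at 24 h. Its log2 fold change was 0.91 (SE 0.18) at 3 h, 1.11 (SE 0.18) at 6 h, 1.32 (SE 0.18) at 12 h and 1.60 (SE 0.18, edgeR adjusted p = 7.73e-07) at 24 h. Without sham 12h replicate 3 the 12 h value was 1.26. The day 1 libraries of 24 h gave 1.60 (SE 0.31, edgeR adjusted p = 0.00128), with 7.74, 9.06 and 8.91 CPM after TBI and 2.07, 3.49 and 2.87 CPM after sham.

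Of the other RNAs that were higher after TBI, 4 belong to the 7 that reached 3 CPM only through TBI libraries. asRNA:CR44179, antisense to CG5112, had 5.59, 4.0 and 5.02 CPM after TBI, against 2.32, 2.28 and 1.89 CPM after sham at 1 h (log2 1.18, SE 0.20, edgeR adjusted p = 0.000153). lncRNA:CR44298 lies 784 bp downstream of Def, which encodes the antimicrobial peptide defensin. It had 10.0, 9.41 and 5.29 CPM after TBI, against 2.49, 3.18 and 1.87 CPM after sham at 3 h (log2 1.71, SE 0.32, edgeR adjusted p = 0.000343), and log2 1.90 at 6 h. Def passed at 6 h (log2 2.12, SE 0.64, edgeR adjusted p = 0.0285), with 23.1, 4.97 and 5.1 CPM after TBI and 4.47, 1.59 and 1.63 CPM after sham, but not at 3 h. lncRNA:CR43461 lies opposite CG3168 without exon overlap. It was higher at 6, 12 and 24 h, with 7.71, 7.15 and 4.44 CPM after TBI against 3.33, 3.04 and 2.27 CPM after sham at 6 h (log2 1.17, SE 0.23, edgeR adjusted p = 0.000804), and CG3168 rose at these times too (log2 1.44 at 6 h, 416, 416 and 417 CPM against 174, 153 and 134 CPM). lncRNA:CR32368 passed at 6 h (log2 1.99, edgeR adjusted p = 0.0496), with 21.4, 3.58 and 2.83 CPM after TBI and 5.52, 1.08 and 0.573 CPM after sham, groups that overlap. That call rests on TBI 6h replicate 1: without it lncRNA:CR32368 had a log2 of 0.44 and an adjusted p of 0.75.

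lncRNA:CR43417 (2R, 16817519 to 16819240) was lower at all 5 times of day 2. At 12 h it had 17.0, 19.2 and 20.4 CPM after TBI, against 58.1, 47.6 and 65.3 CPM after sham, and at 3 h 13.4, 14.7 and 13.2 CPM against 33.2, 38.2 and 37.0 CPM. The groups were apart at each time. The log2 fold change of lncRNA:CR43417 was -1.60 (SE 0.22, edgeR adjusted p = 1.89e-05) at 12 h, -1.49 without sham 12h replicate 3, and lay between -1.40 and -1.0 at the other 4 times. Sham levels were themselves lower than control at 6 h, with 26.2, 25.6 and 27.9 CPM in sham and 67.4, 65.3 and 50.7 CPM in control (log2 -1.20, SE 0.22, edgeR adjusted p = 0.00205). The 24 h libraries of day 1 gave -1.30 (SE 0.24), with 15.1, 14.4 and 13.5 CPM after TBI and 30.2, 37.3 and 38.7 CPM after sham.

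asRNA:CR44181 (2L, 10695058 to 10698195) covers CG7300 in antisense over 95.2% of its own exon length. It fell at all 5 times of day 2 and was the single RNA that also passed at 3 d. At 3 h it had 5.56, 4.94 and 5.37 CPM after TBI, against 15.4, 17.5 and 14.2 CPM after sham (log2 -1.56, SE 0.20, edgeR adjusted p = 1.88e-06). At 3 d it had 12.9, 10.3 and 19.6 CPM after TBI, against 29.3, 23.9 and 31.9 CPM after sham (log2 -0.98, SE 0.20, edgeR adjusted p = 0.0109). The 3 d groups did not overlap, but the call for asRNA:CR44181 was lost without TBI 3d replicate 2 (adjusted p = 0.141) and without sham 3d replicate 3 (adjusted p = 0.0647), and so the 3 d count was 0 in both fits. Without TBI 3d replicate 1 or 3 that count was 2. It was also 2 with the replicate number as a block, which was taken to pair the samples at this time. CG7300 did not pass at any time.

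asRNA:CR45161 (3L, 19989706 to 19990739) is antisense to fln (flightin), a flight muscle gene too low in these heads to be tested. At 3 h it had 2.68, 3.79 and 3.52 CPM after TBI, against 13.1, 9.27 and 10.5 CPM after sham (log2 -1.72, SE 0.25, edgeR adjusted p = 9.89e-06), and it was lower at all 5 times and at 24 h on day 1 (-1.36, SE 0.24). Only its 1 h call (-0.89, adjusted p = 0.0179) was lost in fits without 1 library, 4 of 6. asRNA:CR45131, antisense to CG43341, passed from 3 to 24 h, with 8.04, 11.5 and 10.1 CPM after TBI against 22.7, 20.2 and 22.5 CPM after sham at 3 h (log2 -1.15, SE 0.18, edgeR adjusted p = 4.6e-05). CG43341 fell as well at 1, 3 and 12 h, by 0.96, 0.56 and 0.92 on the log2 scale. asRNA:CR43454, antisense to the sodium/proton exchanger gene Nha2, changed most at 6 h, with 1.9, 2.83 and 2.45 CPM after TBI against 4.54, 6.69 and 5.8 CPM after sham (log2 -1.25, SE 0.19, edgeR adjusted p = 3.74e-05).

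Other RNAs were lower at fewer times. asRNA:CR46194, antisense to the spliceosome gene SmD3, had 17.4, 25.9 and 22.2 CPM after TBI, against 45.0, 36.4 and 46.1 CPM after sham at 3 h (log2 -0.96, SE 0.19, edgeR adjusted p = 0.000541), while its 1 h call (-0.61, adjusted p = 0.0469) had an adjusted p of 0.0613 with the replicate number as a block. asRNA:CR17025, antisense to the immunoglobulin family gene side-IV, had 1.4, 2.69 and 1.83 CPM after TBI and 4.42, 4.4 and 3.2 CPM after sham at 1 h (log2 -1.0, SE 0.25, edgeR adjusted p = 0.00989). This call passed in 4 of 6 fits without 1 library, and its 3 h call (log2 -0.69) in 1 of 6. lncRNA:CR44645 lies 436 bp downstream of Obp57a, an odorant-binding protein gene. It had 4.02, 4.21 and 3.47 CPM after TBI, against 8.12, 8.83 and 6.39 CPM after sham at 3 h (log2 -1.0, SE 0.20, edgeR adjusted p = 0.000768), and Obp57a fell as well (log2 -0.87, SE 0.28, edgeR adjusted p = 0.0361).

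Later on day 2 the lower RNAs were in part others. lncRNA:CR31781 passed at 24 h only by a small margin, with 74.5, 50.5 and 52.7 CPM after TBI against 97.2, 94.6 and 92.3 CPM after sham (log2 -0.68, SE 0.20, edgeR adjusted p = 0.0351), and 5 of 6 fits without 1 library lost the call. lncRNA:CR45223 had 14.1, 14.7 and 13.3 CPM after TBI, against 24.9, 23.7 and 19.9 CPM after sham at 24 h (log2 -0.70, SE 0.17, edgeR adjusted p = 0.00782). lncRNA:CR43650 had 12.0, 15.3 and 13.3 CPM after TBI and 14.6, 46.2 and 22.2 CPM after sham (log2 -1.03, SE 0.27), with overlap, and without sham 24h replicate 2 it was at -0.45 (adjusted p = 0.293). A higher level was seen in lncRNA:CR46064, with 41.7, 40.2 and 43.7 CPM after TBI against 33.4, 36.3 and 31.6 CPM after sham (log2 0.31, SE 0.08, edgeR adjusted p = 0.00821).

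The 24 h RNAs were sequenced on both library days, so the second set of libraries repeats the first with the same RNA and is not independent of it. Of the 130, 9 RNAs (6.92%, against 6.09% of genes) passed on both days in the same direction: asRNA:CR45350 and lncRNA:CR43461 higher, and asRNA:CR44181, asRNA:CR45131, asRNA:CR45161, lncRNA:CR31781, lncRNA:CR43417, lncRNA:CR43650 and lncRNA:CR45223 lower. On day 2 only 3 passed and on day 1 only 10, and the sign was the same on both days in all 22. The day 1 call of lncRNA:CR43461 was lost in all 6 fits without 1 library and that of asRNA:CR45131 in 4 of 6.

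The coding genes beside these RNAs were counted where exons overlap on the opposite strand. At 3 h 21 of the RNAs that passed had such a partner. That gene passed in the same direction in 3 cases, passed in the opposite direction in 0, did not pass in 14 and was too low to be tested in 4, beside a share of 16.5% among all genes at this time. Of 8 RNAs that passed within 1 kb of a coding gene on their own strand, 1 had a partner that passed in the same direction. At 6 h the opposite-strand gene of 9 RNAs passed in 0 cases, at 12 h that of 11 RNAs in 1 case, in the same direction, and at 24 h on day 2 that of 8 RNAs in 0 cases. These counts leave out lncRNA:CR43461, whose exons do not overlap those of CG3168 and which was higher together with it at 6, 12 and 24 h.

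Several 12 h values turned on the library labelled sham 12h replicate 3. asRNA:CR43464 (2L, 2000058 to 2003935, antisense to CG33543, and chosen after its values were seen) had 1.44, 1.65 and 1.58 CPM after TBI, against 0.797, 1.1 and 23.6 CPM after sham. With all libraries it passed as lower after TBI (log2 -2.46, SE 0.74, edgeR adjusted p = 0.0378). Without sham replicate 3 the sign turned (log2 0.74, adjusted p = 0.475), so no direction is given. The RNA was low at 12 h in both TBI and sham flies: at 24 h it had 20.3, 19.0 and 14.2 CPM after TBI and 25.5, 22 and 20.0 CPM after sham, and controls had 25.6, 12.7 and 19.9 CPM. Sham 12h against control gave a log2 of -1.18 (adjusted p = 0.3) for asRNA:CR43464 with the library and -4.38 (adjusted p = 3.01e-07) without it.

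lncRNA:CR45997 had 2.11, 2.29 and 1.79 CPM at 12 h after TBI, against 3.04, 3.35 and 11.1 CPM after sham (log2 -1.51, SE 0.33, edgeR adjusted p = 0.00311). Without sham 12h replicate 3 it did not pass (log2 -0.63, adjusted p = 0.118). asRNA:CR43480, also chosen after its values were seen, had 11.2, 10.0 and 10.7 CPM after TBI and 8.89, 10.7 and 51.5 CPM after sham at 12 h, and controls had 38.7, 31.9 and 30.3 CPM. Against control, sham 12h stood at -0.50 (adjusted p = 0.469) with that library and at -1.79 (adjusted p = 2.19e-06) without it. The 12 h calls of lncRNA:CR31781, asRNA:CR43454 and lncRNA:CR44832 were weak whichever library was dropped, and passed in 2, 1 and 1 of 6 fits without 1 library. Their log2 fold changes were -0.67, -0.61 and -0.54 with all libraries and -0.42, -0.52 and -0.41 without sham 12h replicate 3.

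**Figure D4:**
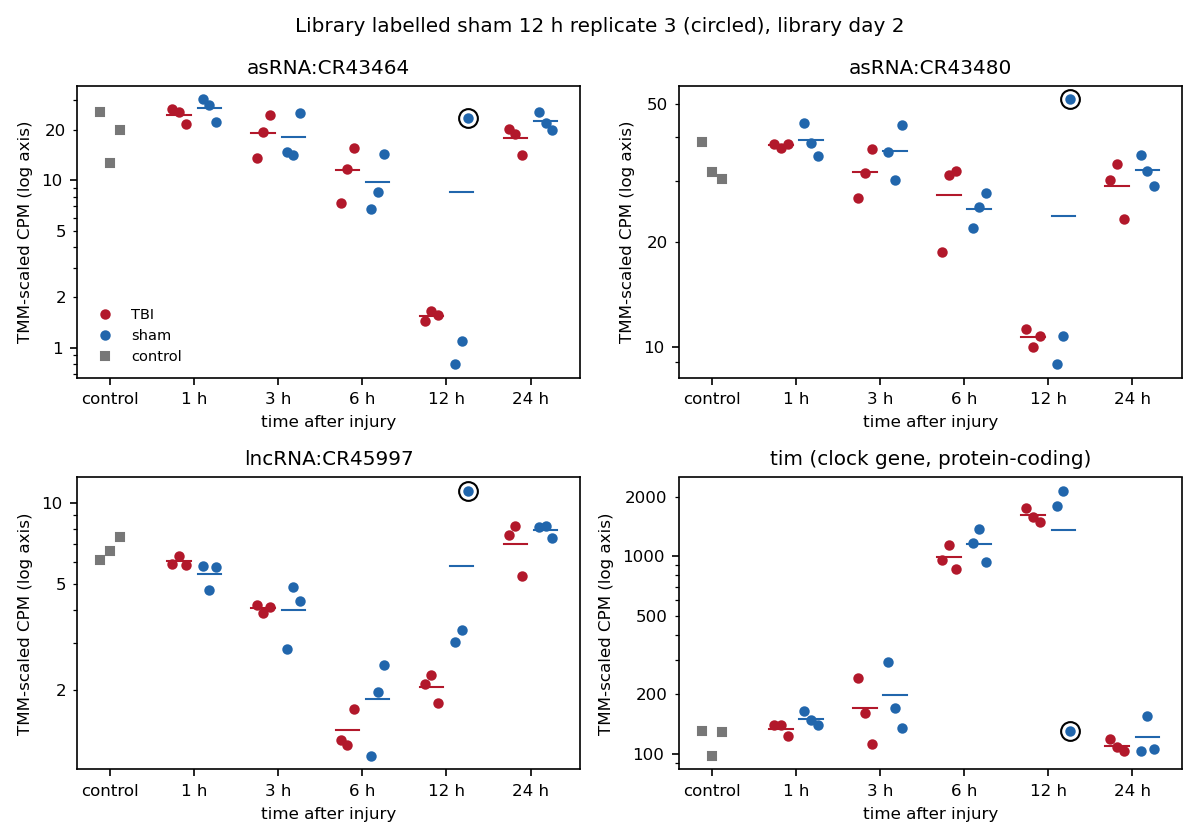
Levels by library on day 2 (TMM-scaled CPM, log axis) of 3 noncoding RNAs and of the clock gene tim in control, TBI and sham flies, with points for libraries and short lines for group means. The circled library labelled sham 12h replicate 3 had 23.6 CPM of asRNA:CR43464 against 0.797 and 1.1 CPM in the other sham libraries, and 130 CPM of tim against 1790 and 2140 CPM.

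Whether the effect of TBI differed between times was tested jointly. On day 2 this passed for 5 of the 130 RNAs (3.68% of genes): asRNA:CR44205 (adjusted p = 0.000163), asRNA:CR44207 (adjusted p = 0.000491), lncRNA:CR44042 (adjusted p = 0.0238), asRNA:CR45350 (adjusted p = 0.036) and asRNA:CR43454 (adjusted p = 0.0466), all by edgeR's quasi-likelihood test. The first 2 reached 3 CPM only through TBI libraries, and with RNAs chosen by control and sham libraries 3 passed. lncRNA:CR44042 was lower at 3 h only, with 1.54, 1.79 and 1.87 CPM after TBI against 3.08, 2.98 and 2.78 CPM after sham, and 4.31, 3.86 and 4.09 CPM against 3.51, 3.83 and 3.83 CPM at 12 h. The count of 5 became 2 without TBI 24h replicate 3, TBI 3h replicate 1, sham 3h replicate 1 or sham 3h replicate 2. It was 3 without TBI 12h replicate 1 or 2, TBI 1h replicate 2 or 3, sham 1h replicate 1 or 3, or sham 24h replicate 1 or 3, and 8 without sham 12h replicate 2. Without sham 12h replicate 3 it was 5 again, 4 of them shared, with asRNA:CR45350 lost (adjusted p = 0.0513) and lncRNA:CR44645 gained (adjusted p = 0.0348). On day 1 0 RNAs passed the joint test by edgeR (0.407% of genes), and 2 by DESeq2.

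From 3 to 15 d the groups differed little. lncRNA:CR33942, which has been reported to promote expression of antimicrobial peptides, had 24.4, 24.8 and 21.6 CPM after TBI, against 7.73, 11 and 11.5 CPM after sham at 7 d (log2 1.23, SE 0.29, edgeR adjusted p = 0.0771). With the replicate number as a block, which was taken to pair the samples at this time, it passed (edgeR adjusted p = 0.0392). At 10 d it had 21.7, 20.3 and 29.6 CPM after TBI, against 8.04, 14.6 and 10.8 CPM after sham (log2 1.09, SE 0.28, edgeR adjusted p = 0.0814). TBI libraries lay above sham libraries without overlap at 3, 7, 10 and 15 d in lncRNA:CR33942 and in lncRNA:CR45018, 2 of the 130 RNAs (1.54%, against 0.965% of genes), and lncRNA:CR45018 passed at none of these times. On day 2 lncRNA:CR33942 did not differ in this way: at 6 h it had 37.6, 27.3 and 19.5 CPM after TBI and 54.1, 35.8 and 24.9 CPM after sham.

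Of the described noncoding RNAs only lncRNA:CR30055 passed after TBI. lncRNA:roX1 (X, 3857230 to 3862697) had 3430, 2600 and 2620 CPM after TBI and 3580, 2730 and 1960 CPM after sham at 1 h, and its groups overlapped at all 10 comparisons, with log2 fold changes between -0.41 and 0.17. lncRNA:roX2 (X, 11579065 to 11580432) had 228, 217 and 217 CPM after TBI and 196, 189 and 172 CPM after sham at 1 h without overlap (log2 0.25, SE 0.16, edgeR adjusted p = 0.455). Of 6 genes of the MSL complex, which binds these RNAs, 1 was higher at each time of day 2 and 0 were lower, with medians between -0.07 and 0.05. lncRNA:Hsromega had 614, 720 and 594 CPM after TBI, against 490, 454 and 413 CPM after sham at 1 h, without overlap (log2 0.51, SE 0.17, edgeR adjusted p = 0.0816). Of 8 omega speckle protein genes 0 passed at any time of day 2. lncRNA:let7C, the precursor of the let-7 complex microRNAs, had 2.65, 3.0 and 2.6 CPM after TBI against 4.04, 3.02 and 4.3 CPM after sham at 3 h (log2 -0.48, SE 0.18, edgeR adjusted p = 0.0731). lncRNA:CR42862, the most abundant, had log2 fold changes between -0.02 and 0.20 on day 2. lncRNA:CR30055 passed at 3 h with a small change (log2 -0.27, SE 0.09, edgeR adjusted p = 0.0483), which 5 of 6 fits without 1 library lost. Small nucleolar RNA host genes carry no lncRNA symbol here and are not among the 130. Of the 7 measured genes for core proteins of small nucleolar ribonucleoproteins, 0 were higher at 1 h (median log2 fold change -0.21), all 7 at both 3 and 12 h and 6 at both 6 and 24 h on day 2 (10.5% of genes were higher at 3 h), with a median log2 fold change of 1.24 at 3 h, against 0.02 for all genes.

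Sham flies were next compared with uninjured controls on day 2, a contrast that holds handling, the hours passed since and the time of day. These cannot be told apart here. The clock gene tim had 1160, 1370 and 936 CPM in sham flies at 6 h, against 130, 97.9 and 129 CPM in controls. By edgeR 1 RNA passed at 1 h (0.438% of genes) and 0 at 3 h (0.363% of genes), where 12 RNAs had an unadjusted p under 0.05 and DESeq2 called 3. The 6 h count was 8 (3.12% of genes), the 12 h count 10 (5.80% of genes) and the 24 h count 4 (1.28% of genes). Without sham 12h replicate 3 the 12 h count was 16 (7.55% of genes), 3 higher and 13 lower, with 7 among the 10. The 5 comparisons share the same control libraries. lncRNA:CR32553 (X, 18124575 to 18127027) had 15.9, 17.1 and 22.8 CPM in sham flies at 6 h and 18.1, 20.8 and 20.1 CPM at 12 h, against 43.3, 43.1 and 37.6 CPM in controls (log2 -1.15, SE 0.17, edgeR adjusted p = 0.000179, and -1.07, SE 0.16). Without sham 12h replicate 3 the 12 h value of lncRNA:CR32553 was -1.09. asRNA:CR45209, antisense to the glutamate transport-related gene genderblind (gb), had 13.2, 13.1 and 13.0 CPM in sham flies at 12 h, against 37.9, 36.7 and 30.1 CPM in controls (log2 -1.41, SE 0.14, edgeR adjusted p = 8.23e-07). In this RNA sham 12h replicate 3 did not stand apart. lncRNA:CR45456 was higher at 6 h, with 64.1, 67.8 and 78.0 CPM in sham flies against 40.5, 21.3 and 28.5 CPM in controls (log2 1.22, SE 0.33, edgeR adjusted p = 0.0386), a call that passed in 1 of 6 fits without 1 library.

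At 24 h asRNA:CR44119 was higher in sham flies, with 6.16, 7.5 and 5.74 CPM against 3.57, 2.33 and 2.64 CPM in controls (log2 1.18, SE 0.21, edgeR adjusted p = 0.00551). asRNA:CR44205 and asRNA:CR44207 were higher as well, by log2 2.29 (SE 0.49, edgeR adjusted p = 0.0227) and 2.98 (SE 0.69, edgeR adjusted p = 0.0282), with 2.48, 2.64 and 2.49 CPM and 3.92, 3.45 and 3.09 CPM in sham flies against 0.43, 0.6 and 0.527 CPM and 0.553, 0.317 and 0.422 CPM in controls. Both calls were lost in 5 of 6 fits without 1 library. lncRNA:CR45018 was lower at 6, 12 and 24 h (log2 -0.93, -0.92 and -0.93), and its 12 h value without sham 12h replicate 3 was -1.17. Leaving out 1 library moved these counts: at 1 h to 3 without control replicate 1, 2 without sham replicate 3 and 0 without any other, at 3 h to 12 without control replicate 1, and at 6 h to 4 without control replicate 3 and to 5 when sham replicate 1 was dropped. The 12 h count was 16 without control replicate 1, 6 without control replicate 3 and 4 without sham replicate 1, and at 24 h 2 without control replicate 2 or 3 and 1 without any of the sham libraries.

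Ageing was followed in sham flies of day 1, each age against the same sham libraries of 24 h. At 3 d 0 RNAs passed by edgeR (0.293% of genes, with 20 RNAs at an unadjusted p under 0.05 and 1 called by DESeq2). At 7 d 13 passed (8.86% of genes, 2.70% higher and 6.16% lower), 1 higher and 12 lower, at 10 d 32 (19.8% of genes), 3 higher and 29 lower, and at 15 d 21 (20.0% of genes, 8.92% higher and 11.1% lower), 5 higher and 16 lower. At 10 d the 29 lower RNAs were 22.3% of the 130, against 11.2% of genes, and the 3 higher ones 2.31%, against 8.54% of genes. The count at 10 d was 11 without sham 24h replicate 1, 21 and 19 without sham 10d replicate 1 and 3. At 7 d it was 1 and 7 without sham 24h replicate 1 and 2, and 4 and 2 without sham 7d replicate 2 and 3. At 15 d it was 11 and 13 without sham 15d replicate 1 and 2. Other measures moved with age: transcripts of the mitochondrial genome took 1.70% to 2.32% of gene counts in sham flies of 10 d, against 7.96% to 13.1% at 24 h, and photoreceptor markers summed to 62000 to 76100 CPM against 51200 to 58900 CPM. Neuron markers summed to 5630 to 6020 CPM at 10 d, against 6600 to 9920 CPM at 24 h. Their part in the ageing results was not tested.

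At both 10 and 15 d 15 RNAs were lower (11.5% of the 130, against 8.44% of genes). Of the 130, 8 RNAs were lower at 7, 10 and 15 d (6.15%, against 5.21% of genes), lncRNA:roX2 among them. lncRNA:roX2 had 67.0, 43.3 and 59.2 CPM at 7 d, 43.1, 49.7 and 43.8 CPM at 10 d and 41.4 and 35.2 CPM at 15 d, against 114, 85.7 and 74.4 CPM at 24 h. Its log2 fold changes were -0.69 (SE 0.22, edgeR adjusted p = 0.0493), -1.0 (SE 0.22, edgeR adjusted p = 0.00277) and -1.25 (SE 0.25, edgeR adjusted p = 0.00127), and the 7 d call was lost in 4 of 6 fits without 1 library. lncRNA:roX1 passed at none of these ages, and of the 6 MSL genes 0 passed. lncRNA:CR42861 (X, 13744928 to 13745476) had 2.55, 2.28 and 1.7 CPM at 10 d, against 8.46, 5.64 and 5.45 CPM at 24 h (log2 -1.57, SE 0.24, edgeR adjusted p = 9.22e-05).

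asRNA:CR44029, antisense to the synaptic vesicle priming gene unc-13, had 16, 17.6 and 14.9 CPM at 10 d, against 27.2, 26.0 and 24.8 CPM at 24 h (log2 -0.68, SE 0.11, edgeR adjusted p = 0.000156), and unc-13 was lower at 10 d as well (log2 -0.48, SE 0.14, edgeR adjusted p = 0.0168). The remaining RNAs lower at all 3 ages were asRNA:CR44207, asRNA:CR45007, asRNA:CR45621, lncRNA:CR45102 and lncRNA:CR45533. The 7 d calls behind this list are weak: those of asRNA:CR44029 and asRNA:CR44207 passed in 1 of 6 fits without 1 library, and a single RNA passed at 7 d without sham 24h replicate 1. lncRNA:CR44922 was lower as well, with 15.5, 21.3 and 19.5 CPM at 10 d against 103, 57.6 and 48.1 CPM at 24 h (log2 -1.89, SE 0.45, edgeR adjusted p = 0.0056), a call lost without sham 24h replicate 1 (adjusted p = 0.0547). lncRNA:CR32368 was the 1 RNA higher at 10 and 15 d (0.769%, against 5.70% of genes), with 10.0 and 11.3 CPM at 15 d against 1.66, 1.33 and 2.06 CPM at 24 h (log2 2.67, SE 0.54, edgeR adjusted p = 0.00148). lncRNA:noe, an RNA described from the nervous system, was higher at 15 d, with 575 and 574 CPM against 424, 335 and 373 CPM at 24 h (log2 0.61, SE 0.15, edgeR adjusted p = 0.00495).

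**Figure D5:**
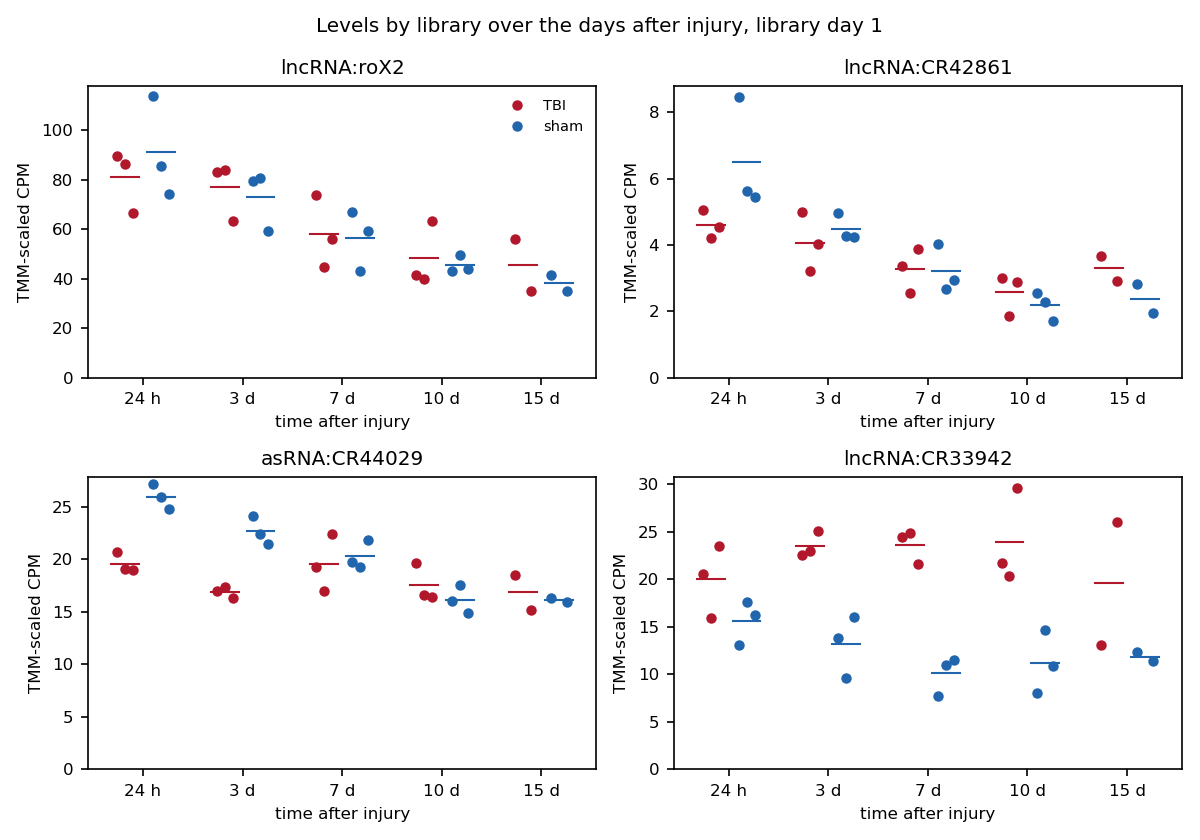
Levels by library on day 1 (TMM-scaled CPM) of 4 noncoding RNAs in TBI and sham flies from 24 h to 15 d after injury, with points for libraries and short lines for group means. In sham flies lncRNA:roX2, lncRNA:CR42861 and asRNA:CR44029 are lower at 10 d than at 24 h. lncRNA:CR33942 is higher in every TBI library than in every sham library of the same time at 3, 7, 10 and 15 d. That difference did not pass the test without a block, and passed at 7 d with the replicate number as a block.

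The same 9 RNAs, prepared on both library days, gave different levels of most of these genes. With day 2 over day 1, 103 of the 130 passed (68.4% of genes, 35.1% higher and 33.3% lower), 97 higher and 6 lower on day 2, with a median log2 difference of 0.50 against 0.03 for all genes. The choice of RNAs by their day 2 level tilts this, so it is a description. Among the 126 lncRNA and asRNA genes with at least 3 CPM on day 1 instead, 84 were higher and 10 lower on day 2, with a median of 0.42. lncRNA:roX2 was higher on day 2 by 1.15 (SE 0.05), lncRNA:CR44283 by 1.36 (SE 0.22) and asRNA:CR43957 by 1.21 (SE 0.12), while lncRNA:noe stood at -1.10 (SE 0.06), asRNA:CR44107 at -1.62 (SE 0.20) and asRNA:CR45835 at -0.80 (SE 0.13). Levels are therefore compared within a library day throughout.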

How the data were processed

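The authors deposited a table of read counts per gene, 1 column per library, as whole numbers that were not normalized, and these counts were used as deposited. Per the submitters' processing notes the tools named were FastQC, MultiQC, HISAT2, Picard, HTSeq and DESeq2. No source used here states their versions, the genome build, the annotation or the strand setting. Symbols came from the BDGP6.54 annotation, which held 17342 of the identifiers and lacked 139. The 5 HTSeq categories of reads not assigned to a gene were left out of library sizes, and genes held 78.2% to 86.0% of reads on library day 1 and 67.9% to 79.0% on day 2. The labels give 55 separate RNAs by name and the series text 52.

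Groups follow the labelled condition, time and library day. For each library day 1 quasi-likelihood model over its 11 groups was fitted with edgeR 4.0.16 in R 4.3.3, with TMM factors, filterByExpr and robust estimation, which kept 10739 genes on day 2 and 10567 on day 1 (22 and 20 residual degrees of freedom, biological coefficient of variation 0.167 and 0.161). The comparison of library days used only the 9 RNAs with a library on each day and took the RNA as a blocking factor. p-values were adjusted over all genes tested by the Benjamini-Hochberg method, and the script was tested on simulated data. The standard error is the log2 fold change divided by the root of the F statistic.

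Alternatives were DESeq2 1.42.0, other size factors, no filter, scaling without mitochondrial genome transcripts, the 2 groups alone, the replicate number as a block, other thresholds for the RNAs and leaving out each library. In comparisons with 3 pairs of samples, replicate numbers were taken to pair the samples where same-numbered libraries deviated together with every correlation over 0.1. This held for TBI and sham at 1, 6 and 24 h on day 2 and at 3, 7 and 10 d, and in no other such comparison. That cut cannot decide whether samples were paired. At 24 h the same RNAs gave 0.154, 0.121 and 0.396 on day 2 and 0.142, 0.079 and 0.359 on day 1. Libraries with different numbers were not correlated for reference. With only 2 pairs at 15 d, the numbers were not taken to pair the samples there. The RNAs, lists and rules for naming genes were chosen with earlier results of these data known. Named were, per comparison, up to 5 higher and 5 lower RNAs with the largest changes and no overlap (3 of each in the other comparisons), described and most abundant RNAs, recurring ones, those leading the joint test and their coding neighbours. No sequences are shown. The coding gene beside 1 of the named RNAs is not reported here.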

Additional observations from a re-analysis of the deposited data

Results flagged for a closer look

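For 5 RNAs the effect of TBI differed between the times of day 2 by the joint test of edgeR: asRNA:CR44205 (adjusted p = 0.000163), asRNA:CR44207 (adjusted p = 0.000491), lncRNA:CR44042 (adjusted p = 0.0238), asRNA:CR45350 (adjusted p = 0.036) and asRNA:CR43454 (adjusted p = 0.0466). asRNA:CR44205 and asRNA:CR44207 were higher at 3, 6 and 12 h and near sham at 24 h, while the difference in asRNA:CR45350 was 0.39 at 1 h and 1.60 at 24 h on the log2 scale. The choice of RNAs partly fixes the rise in asRNA:CR44205 and asRNA:CR44207, which reached 3 CPM only through TBI libraries. lncRNA:CR44042 and asRNA:CR43454 were lower after TBI, at 3 h and at 3, 6 and 12 h. The 12 h call of asRNA:CR43454 (log2 fold change -0.61) was lost in 5 of 6 fits without 1 library, and the value without sham 12h replicate 3 was -0.52.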

How the results depend on the processing

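Counts of the RNAs that passed depended on the libraries. For most of the fits below the share of all genes is not given, so a change in count is not read as particular to these RNAs. Leaving out 1 library gave 4 to 8 at 1 h, 17 to 29 at 3 h, 12 to 16 at 6 h, 9 to 19 at 12 h, 8 to 12 at 24 h on day 2, 7 to 20 at 24 h on day 1, 0 to 2 at 3 d and 0 to 0 at 7, 10 and 15 d after TBI. For sham against control it gave 0 to 3 at 1 h, 0 to 12 at 3 h, 4 to 7 at 6 h, 4 to 16 at 12 h and 1 to 4 at 24 h. For age it gave 0 to 4 at 3 d, 1 to 18 at 7 d, 11 to 36 at 10 d and 11 to 25 at 15 d, for the joint test 2 to 8 (day 2) and 0 to 1 (day 1), and for the library days 95 to 111. With a threshold of 10 CPM, 63 RNAs were left, of which 4, 12, 4 and 8 passed at 1, 3, 6 and 12 h after TBI, 6 and 1 in sham at 12 and 24 h, 7 and 13 with age at 7 and 15 d, 0 in the joint test of day 2 and 55 between library days. Fits of the 2 groups alone called 9 at 12 h, 0 at 3 d and 1 at 7 d after TBI, 0, 3, 2 and 2 in sham at 1, 6, 12 and 24 h, and 5 with age at 7 d. DESeq2 called 4 at 3 d, 1 at 7 d and 1 at 10 d after TBI, 4 and 3 in sham at 1 and 3 h, 1 with age at 3 d, and 11 and 2 in the joint tests of day 2 and day 1. At 3 d after TBI 2 passed with RLE size factors, with scaling without mitochondrial genome transcripts and with the replicate block. That block gave 1 at 7 d after TBI and 2 with age at 3 d, where the numbers were not taken to pair the samples. Without a filter 6 passed with age at 7 d, and with RNAs chosen by control and sham libraries 2 passed in sham at 24 h and 3 in the joint test. The causes were not tested, apart from fewer RNAs, libraries or groups entering by construction. With the block, where the numbers were taken to pair the samples, asRNA:CR46194 lost its 1 h call (edgeR adjusted p = 0.0613). There lncRNA:CR33942 gained a call at 7 d (edgeR adjusted p = 0.0392), and no other call of a named RNA changed with the block. In fits of the 2 groups alone 51 results of named RNAs no longer passed, 3 newly passed and 147 were unchanged. Without a filter 14 no longer passed and 233 were unchanged. Between library days 10 no longer passed without the RNA as a block, and 31 were unchanged. With RLE size factors 4 no longer passed and 243 were unchanged, and with DESeq2 3 newly passed and 244 were unchanged. No scaling moved the median of all genes by over 0.1 on the log2 scale. The RNAs chosen by day 1 levels were an alternative added after seeing the data. Depth limits the RNAs with few counts: asRNA:CR44207 had 2, 1 and 7 counts in sham flies at 12 h.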

Other observations

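Another RNA opposite CG1688, lncRNA:CR44208 (2R, 9788539 to 9791295), lies below the threshold of 3 CPM and was looked at after the values of its neighbours asRNA:CR44205 and asRNA:CR44207 were seen. It had 224, 163 and 132 raw counts after TBI, against 3, 0 and 1 after sham at 6 h (edgeR adjusted p = 2.71e-08). At 3 h it had 35, 45 and 154 counts after TBI, against 0, 1 and 2 after sham (edgeR adjusted p = 1.67e-06), and at 12 h 49, 25 and 89 counts against 0, 1 and 3 (edgeR adjusted p = 2.07e-05). The groups were apart at these 3 times. At 24 h lncRNA:CR44208 had 4, 9 and 3 counts after TBI and 4, 3 and 7 after sham (edgeR adjusted p = 0.85), and controls had 1, 0 and 0. No fold is given because of the sham counts at or near 0.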
